A study of Homo sapiens with 6 samples.

Results

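The genes described here are the metallothioneins MT1E, MT1F, MT1G, MT1H, MT1M, MT1X and MT2A together with MTF1 and SLC30A1. They were chosen by gene symbol, and all 9 were found among the 58884 genes of the deposited count matrix. The libraries came from DLD1, a human colorectal adenocarcinoma line that carries a helical domain mutation of PIK3CA. One group was the parental line, and the other carried K477A and R478A, a pair of substitutions in the nuclear localization signal of p85β, knocked in at the endogenous PIK3R2 locus by CRISPR (p85β KR-AA mutant cells). The source names of mutant replicates 2 and 3 write R479A and R480A in place of R478A, against their own titles and genotype labels, which were followed. Each group had 3 RNA-seq libraries, and no metal or hormone treatment was named for either. The study describes its mutant cells as clones, and the labels do not say which clone gave which library. Nothing states that the 3 libraries of a group came from separate cultures, so the p-values measure the spread between libraries, which may be technical.

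Metallothioneins are small, cysteine-rich proteins that bind zinc, copper and cadmium and buffer the free metal of the cell. When free zinc rises, the zinc finger factor MTF1 binds metal response elements in the promoters of metallothionein genes and of SLC30A1, which encodes the zinc exporter ZnT1 of the plasma membrane. Glucocorticoids and oxidative stress are other known inducers of metallothioneins, and MT2A is usually the most abundant form in human epithelial cells.

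The 7 metallothionein genes form 1 cluster on chromosome 16, chr16:56642496-56718108 in the GENCODE annotation on GRCh37, which spans 75.6 kb. MT2A (chr16:56642496-56643409, ENSG00000125148) lies at its start and MT1X (chr16:56716382-56718108, ENSG00000187193) at its end, both on the plus strand. MT1G is the member on the minus strand of the cluster. MTF1 (chr1:38275246-38325264) and SLC30A1 (chr1:211744910-211752503) are on the minus strand of chromosome 1. The metallothionein genes are short, with deposited gene lengths between 232 bases for MT1M and 729 bases for MT1E. MTF1 and SLC30A1 are long, at 7937 and 5893 bases.

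Promoter sequences in RefSeq (GRCh38.p14) were matched for 5 of the 9 members. The 250 bases before the transcription start are shown for MT2A and MT1X, the most abundant members per kilobase of gene length, for MT1H, which had no counts, and for SLC30A1, the target of MTF1 outside the cluster. Each is written on the strand of its gene, and capitals mark the core of the metal response element, searched as TGCACNC and TGCGCNC on both strands. No match overlapped another in these windows.
MT2A, chr16:56608334-56608583, plus strand: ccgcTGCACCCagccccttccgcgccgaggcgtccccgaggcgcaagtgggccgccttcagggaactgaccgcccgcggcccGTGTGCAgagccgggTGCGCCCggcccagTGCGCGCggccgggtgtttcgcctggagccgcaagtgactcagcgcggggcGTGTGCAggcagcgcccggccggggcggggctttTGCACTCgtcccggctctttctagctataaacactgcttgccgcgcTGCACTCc
MT1X, chr16:56682220-56682469, plus strand: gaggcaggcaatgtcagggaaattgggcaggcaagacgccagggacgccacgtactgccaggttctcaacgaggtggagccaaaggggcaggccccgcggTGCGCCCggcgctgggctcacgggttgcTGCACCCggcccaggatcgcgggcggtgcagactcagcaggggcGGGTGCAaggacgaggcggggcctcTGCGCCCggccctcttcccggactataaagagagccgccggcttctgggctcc
MT1H, chr16:56669564-56669813, plus strand: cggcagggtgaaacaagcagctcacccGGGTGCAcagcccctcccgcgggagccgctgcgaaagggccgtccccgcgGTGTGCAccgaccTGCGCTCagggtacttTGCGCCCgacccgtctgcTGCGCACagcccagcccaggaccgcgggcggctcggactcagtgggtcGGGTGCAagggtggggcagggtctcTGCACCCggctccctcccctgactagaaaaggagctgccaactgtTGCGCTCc
SLC30A1, chr1:211579162-211579411, minus strand: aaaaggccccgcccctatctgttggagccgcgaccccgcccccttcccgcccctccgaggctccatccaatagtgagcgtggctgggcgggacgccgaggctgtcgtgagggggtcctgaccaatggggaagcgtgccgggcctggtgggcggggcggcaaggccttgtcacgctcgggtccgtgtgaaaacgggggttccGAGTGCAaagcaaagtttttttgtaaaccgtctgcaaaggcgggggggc

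The MT2A window held 7 cores, the MT1H window 8 and the MT1X window 4. In MT1X the matches began 150, 122, 78 and 53 bases before the start, and MT1H also had matches at 78 and 53. SLC30A1 held 1 core, 49 bases before the start, and MTF1 held 0. Of 35116 promoters of the same length, 24.8% had at least 1 core, 0.37% at least 4 and 0.0313% at least 7. These are matches of letters in the windows, not measured binding sites.

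The libraries themselves differed strongly between the groups. Totals ran from 20301932 to 20873475 counts in parental libraries and from 20301396 to 26712816 in mutant libraries. Long genes (over 4000 bases) held 9.49 to 12.1% of all parental counts and 27.7 to 28.9% of all mutant counts. Short genes (1000 bases or fewer) held 23.6 to 27.6% and 13.1 to 13.3%. Fold changes followed gene length. In the main fit (edgeR quasi-likelihood test, trimmed mean scaling, called at a fold of at least 3 and a Benjamini-Hochberg adjusted p below 0.01 over 16059 tested genes), the median log2 fold change was 0.32 over all genes, -1.12 over the 1593 genes of at most 1000 bases and 1.65 over the 4956 genes above 4000 bases. This length trend and the genotype cannot be told apart. Scaling by library totals raised the median of all genes by 0.92. PIK3R2, the edited gene, had a scaled level (CPM, counts relative to the scaled library size) of 12.3 to 34.8 in parental and 4.54 to 16.6 CPM in mutant libraries (edgeR adjusted p = 0.0558), and gene counts cannot show the 2 substitutions.

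Markers of the cells also differed. Of 14 colon epithelium markers, 13 were tested, and 3 were called higher and 6 lower in the mutant libraries. Over all tested genes, 28.6% were called higher and 17.6% lower. The summed level of the colon markers was 57250 to 79280 CPM in parental and 8849 to 10350 CPM in mutant libraries. KRT8, KRT18 and KRT19 held most of the colon sum in both groups. Their means were 37381, 18441 and 11444 CPM in parental and 4454.4, 2536.6 and 1739.4 CPM in mutant libraries. These keratins and CDX2 stayed abundant but were called lower, with log2 fold changes of -3.07, -2.86, -2.72 and -1.98. The 3 called higher were CDH1 (mean 97.3 to 343.8 CPM), CDH17 (6.6 to 28.5 CPM) and CEACAM5 (0.388 to 20.5 CPM). CDX1 had at most 3 counts in any library. Of 16 mesenchymal markers, 11 were tested, 9 were called higher and 0 lower, with sums of 7.94 to 10.8 CPM against 6349 to 7263 CPM. FN1 (mean 4991.6 CPM) and VIM (1771.6 CPM) held most of the mutant sum, and COL1A2, THY1 and FAP stayed at or near 0. Of 12 neuron markers 6 were tested and 5 called higher, with DCX and ELAVL4 at 0. The remaining tested marker, TUBB3, was at -1.41 and not called. The neuron sum, most of it TUBB3, was lower in the mutant, at 521.1 to 608.7 CPM in parental and 349.2 to 369.6 CPM in mutant libraries. Of 14 hepatocyte markers 3 were tested and 1 called higher, with ALB at most 1 count. Of 10 blood markers 3 were tested and 0 called. The part of these shifts in the results on metallothioneins was not tested. In bulk libraries, fewer cells of a type and less RNA per cell cannot be told apart.

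MT2A was the most abundant member by far, and it fell in the mutant cells. MT2A had 16254.36, 16031 and 15348 estimated counts in parental and 11295, 8482 and 8998 in mutant libraries. On the scaled level these were 1079.6, 1167.4 and 946.85 CPM against 308.09, 295.32 and 327.86 CPM. All 3 mutant libraries lay below all 3 parental libraries, on counts and on CPM alike. The mean level went from 1064.6 ± 111 CPM to 310.43 ± 16.4 CPM (SD, n = 3 each). The log2 fold change was -1.78 (SE 0.13, edgeR adjusted p = 6.11e-08). With library totals it was -0.85, short of the 3-fold threshold.

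MT1F, a low-level member of the MT1 family, fell by the same log2 amount. Its counts were 293, 334 and 338 in parental and 212, 177 and 190 in mutant libraries, again without overlap. The mean level was 21.5 ± 2.50 CPM in parental and 6.29 ± 0.58 CPM in mutant cells (SD, n = 3 each), with a log2 fold change of -1.78 (SE 0.18, edgeR adjusted p = 1.03e-06), and of -0.85 with library totals.

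MT1E and MT1X, the next most abundant MT1 genes, had smaller differences that did not reach the 3-fold threshold. MT1E had 129.92, 147.03 and 131.16 CPM in parental and 57.4, 56.3 and 56.1 CPM in mutant libraries. The mutant libraries were all lower, with a log2 fold change of -1.26 (SE 0.12, edgeR adjusted p = 7.83e-07). With library totals it was -0.34 (edgeR adjusted p = 0.0172), and the raw counts overlapped, at 1956 to 2126 in parental and 1540 to 2106 in mutant libraries. MT1X had 116.86, 115.64 and 94.3 CPM in parental and 57.8, 53.7 and 58.7 CPM in mutant libraries, with a log2 fold change of -0.94 (SE 0.13, edgeR adjusted p = 2.53e-05). On raw counts the MT1X groups overlapped, at 1528 to 1759.39 in parental and 1541 to 2120 in mutant libraries, and scaled by library totals its log2 fold change was -0.01 (edgeR adjusted p = 0.94).

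The remaining metallothionein members were at or near 0 counts in both groups. MT1H and MT1M had 0 counts in all 6 libraries, and MT1G had 0 counts in each parental library and 5, 0 and 5 in mutant libraries. A count of 0 allows up to 3 counts, which is at most 0.218 CPM in any library, for counting error only. These 3 genes did not pass the filter on low counts, so 6 of the 9 members were tested.

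MTF1, the zinc-sensing transcription factor, was higher in the mutant cells. It had 52, 32 and 68 counts in parental and 687, 532.16 and 460 counts in mutant libraries, and every mutant library lay above every parental library. The level was 3.33 ± 0.94 CPM in parental and 18.0 ± 1.09 CPM in mutant cells (SD, n = 3 each). The log2 fold change was 2.43 (SE 0.22, edgeR adjusted p = 4.99e-07). With offsets for gene length it was 0.36 (SE 0.20, edgeR adjusted p = 0.106), so the call on this 7937-base gene was lost.

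SLC30A1 had a smaller difference in the same direction, which was not called and which reversed to -0.51 with length offsets. Its counts were 170, 114 and 162 in parental and 847, 681 and 491 in mutant libraries, and the groups did not overlap. The level was 9.86 ± 1.5 CPM in parental and 21.6 ± 3.20 CPM in mutant cells (SD, n = 3 each), with a log2 fold change of 1.13 (SE 0.19, edgeR adjusted p = 0.000105).

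Over the 6 tested members, 1 was called higher and 2 were called lower, where 28.6% of all tested genes were called higher, 17.6% lower and 46.2% in either direction. With library totals 2 members were called higher and 0 lower, against 43.9% and 6.06% of all genes, and with length and GC offsets 0 in either direction, against 12.9% and 11.3%. At an adjusted p below 0.05 with no fold threshold, 2 were higher and 4 lower, against 45.9% and 35.7%. The groups did not overlap for any of the 6, with the mutant above for 2 and below for 4, against 47% and 36.5% of all tested genes. Among tested genes of at most 1000 bases, the class of the metallothioneins, 39.4% were called lower and 10.5% higher. Among genes over 4000 bases, the class of MTF1 and SLC30A1, 50.9% were called higher and 3.97% lower. The members' counts are thus given as a description and are not set apart from these backgrounds. In the main fit the direction of each member was that of the median of its length class.

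Each difference was then recomputed with other scaling and with offsets for gene length. Relative to the median of all tested genes, MT2A stood at -2.1 with trimmed mean scaling and -2.09 with library totals, and MTF1 at 2.11 and 2.1. The corresponding values of SLC30A1 were 0.81 and 0.81, and those of MT1X were -1.26 and -1.25. The scaling thus shifted all members together. With library totals SLC30A1 had a log2 fold change of 2.05 and passed the 3-fold threshold (edgeR adjusted p = 6.54e-06).

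Relative to the median of all tested genes, offsets for gene length changed the tested members more than scaling did. On that measure MT2A stood at -0.65 and MTF1 at 0.45 with length offsets. The log2 fold changes of the metallothionein members, however, were similar with library totals and with length offsets. With library totals MT2A and MT1F were at -0.85, MT1E at -0.34 and MT1X at -0.01. With length offsets MT2A was at -0.74 (SE 0.12, edgeR adjusted p = 6.17e-05) and MT1F at -0.70 (SE 0.17, edgeR adjusted p = 0.0014). MT1E was at -0.29 and MT1X at 0.13. With offsets for length and GC content together, MT2A was at -0.38 (SE 0.08, edgeR adjusted p = 0.00123) and MT1F at -0.17 (SE 0.12, edgeR adjusted p = 0.235). MT1E and MT1X were at 0.13 and 0.30, MTF1 at 0.18, and SLC30A1 at -1.38 (edgeR adjusted p = 8.19e-06). MT2A and MT1F were the members with a negative value in all 5 of these fits, and MT2A alone of them kept an adjusted p below 0.01 throughout. Relative to the median of all tested genes, however, MT2A stood at -0.23 and MT1F at -0.02 with length and GC offsets. No member was called at the 3-fold threshold with either kind of offset.

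**Figure D1:**
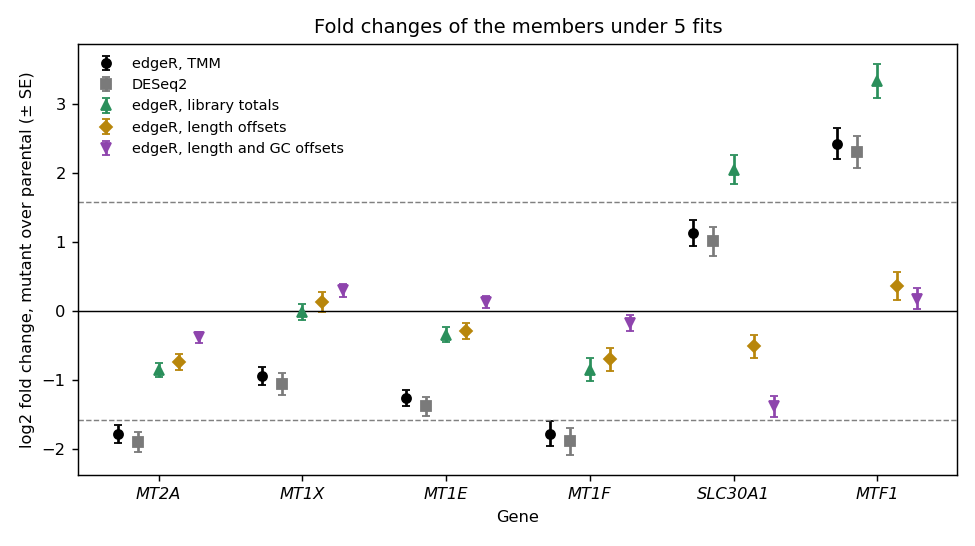
Log2 fold change (mutant over parental, error bars ± SE, 3 libraries in each group) of the 6 tested members under 5 fits, with dashed lines at a fold of 3 in either direction. MT2A and MT1F lie below 0 in every fit and MTF1 above 0, MT1X runs from -1.06 with DESeq2 to 0.30 with length and GC offsets, and SLC30A1 runs from 2.05 with library totals to -1.38 with length and GC offsets.

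The order of the members by level, per kilobase of gene length, was the same in both groups. In parental cells the scaled level was 1832 ± 191 CPM per kb for MT2A, 269.6 ± 31.5 for MT1X, 186.6 ± 13.1 for MT1E and 50.7 ± 5.89 for MT1F (SD, n = 3 each). SLC30A1 followed at 1.67 ± 0.25 CPM per kb and MTF1 at 0.419 ± 0.12. In mutant cells the levels were 534.3 ± 28.2 CPM per kb for MT2A, 140.4 ± 6.68 for MT1X, 77.7 ± 0.98 for MT1E and 14.8 ± 1.37 for MT1F. SLC30A1 stood at 3.66 ± 0.54 CPM per kb and MTF1 at 2.27 ± 0.14. No neighbouring pair in this order overlapped between libraries of the same group.

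**Figure D2:**
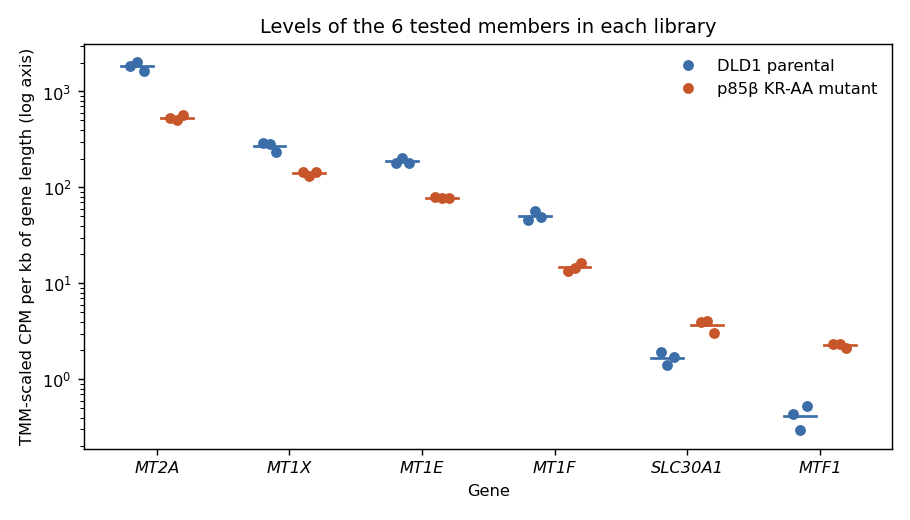
Scaled level per kilobase of gene length (CPM per kb, log axis) of the 6 tested members, with 1 point for each of the 3 parental (blue) and 3 mutant (orange) libraries and a line at each mean. MT2A runs from 1630 to 2009 in parental and from 508.3 to 564.3 in mutant libraries, and MTF1 from 0.294 to 0.529 and from 2.11 to 2.36; with library totals in place of trimmed mean scaling the MT1X groups overlap.

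Ratios between metallothioneins within a library do not depend on the scaling. The ratio of MT2A to MT1X counts was 9.24, 10.1 and 10 in parental and 5.33, 5.50 and 5.59 in mutant libraries. MT2A to MT1E gave 8.31, 7.94 and 7.22 against 5.36, 5.24 and 5.84. Both ratios were lower in every mutant library (exact permutation test, two-sided, p = 0.1 for each, the smallest that 3 against 3 allows). MT2A to MT1F, in contrast, was 49.6 ± 5.2 in parental and 49.5 ± 3.3 in mutant cells (SD, n = 3 each; exact permutation test, p = 1). The ratio of SLC30A1 to MTF1 was 3.27, 3.56 and 2.38 in parental and 1.23, 1.28 and 1.07 in mutant libraries (exact permutation test, two-sided, p = 0.1). These ratios were among 7 computed together, and the 3 against 3 design cannot pass 0.05 for any. The others, MT1E to MT1X, MT1X to MT1F and MT2A to MTF1, each gave p = 0.1 in the same exact permutation test.

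The composition of the summed metallothionein counts differed in the same way. The sum covered MT2A, MT1E, MT1X, MT1F, MT1A, MT1B, MT3, MT1JP and MT1G. It left out MT1DP and MT1P1, which had at most 1 count in any library. MT2A made up 80.1, 80.2 and 79.3% of the summed counts in parental and 70.9, 70.8 and 72% in mutant libraries. In the closest pair of libraries, the third of each group, the Wilson 95% intervals were 78.7 to 79.9% and 71.2 to 72.7%. MT1X made up 8.17 ± 0.43% and 13 ± 0.25%, and MT1E 10.2 ± 0.68% and 13 ± 0.62% (SD, n = 3 each). MT1F held 1.62 ± 0.16% and 1.44 ± 0.099%, and here the groups overlapped. The shares of MT2A, MT1X and MT1E did not overlap between groups (exact permutation test, two-sided, p = 0.1 for each), and that of MT1F gave p = 0.3 in the same exact test. Together the metallothioneins took 0.0927 to 0.0984% of the counts in parental and 0.0587 to 0.0616% in mutant libraries.

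**Figure D3:**
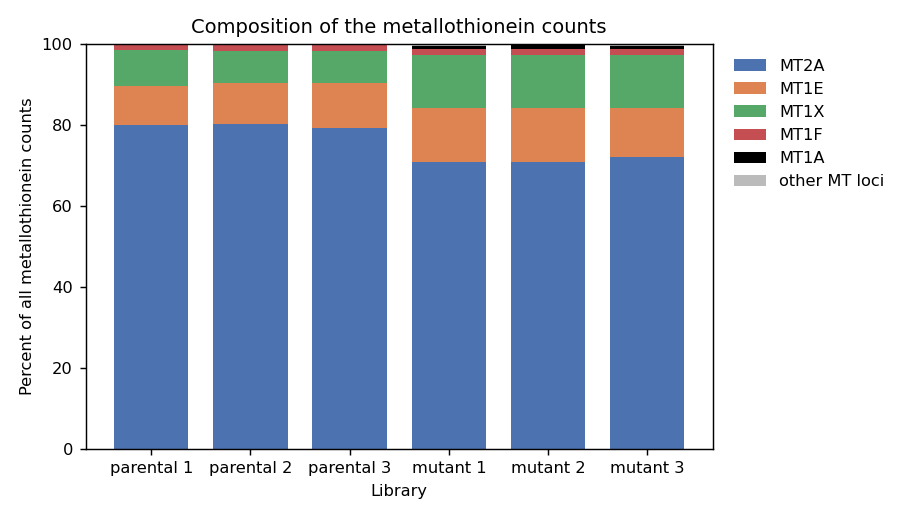
Share of each metallothionein in the summed metallothionein counts of a library (without MT1DP and MT1P1), in percent, as stacked bars for 3 parental and 3 mutant libraries. MT2A holds 79.3 to 80.2% in parental and 70.8 to 72% in mutant libraries, MT1X and MT1E hold larger shares in the mutant libraries, and MT1A (black) appears in the mutant libraries alone, at 0.84 to 0.969%.

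Outside the chosen genes, MT1A was the metallothionein with the clearest difference. MT1A, a member of the same cluster, had 0 counts in all 3 parental libraries and 140, 116 and 105 counts in the mutant libraries. Its mutant level of 3.89 ± 0.13 CPM (SD, n = 3) was at least 17.8-fold higher than the 3 counts that a count of 0 allows in the shallowest parental library. It was called higher in the main fit (edgeR adjusted p = 2.85e-07), as well as with library totals, DESeq2 and both kinds of offset. In mutant cells its level per kilobase, 9.84 ± 0.32 CPM per kb, lay between those of MT1F and SLC30A1.

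The other metallothionein loci were at low counts or none. MT1B had 10, 5 and 3 counts in parental and 35, 22 and 21 in mutant libraries. Its main-fit log2 fold change of 1.04 (SE 0.45, edgeR adjusted p = 0.0484) was not called, nor was 0.91 with DESeq2 (DESeq2 adjusted p = 0.2). MT1B was called higher with library totals (1.96, edgeR adjusted p = 0.0016) and with length offsets (2.1, edgeR adjusted p = 0.000644). Length and GC offsets also gave a call, at 1.86 (edgeR adjusted p = 0.00277). MT3, the brain-enriched form, had 10, 6 and 8 against 19, 15 and 27 counts. Its main-fit log2 fold change of 0.32 (SE 0.43) did not pass the test (edgeR adjusted p = 0.501). MT3 was not called with library totals (1.23, edgeR adjusted p = 0.0175) or with length offsets (1.36, edgeR adjusted p = 0.011). With length and GC offsets it was called higher at 2.31 (edgeR adjusted p = 0.000246). The pseudogenes MT1JP, MT1DP and MT1P1 had at most 7 counts in any library, and 6 of the 12 other loci had 0 counts in all libraries. Of these 12 loci, 3 were tested and 1 was called higher in the main fit, where 28.6% of all tested genes were.

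Assignment of reads between these similar genes bears on all the values above. Estimated counts of the MT1 and MT2A members were whole numbers, within 0.005, in all but 2 of 42 values, so fractional splits were rare. The 42 values include the zeros of MT1H, MT1M and MT1G, which are whole in any case. Whole values do not show which gene was given the reads that genes share. In the annotated transcripts, 2.19% of the 50-base windows of MT2A, 3.46% of those of MT1X and 16.3% of those of MT1G also occurred in another metallothionein gene. No window of 100 bases was shared. The summed metallothionein counts, without MT1DP and MT1P1, do not depend on how reads were split between the summed loci. This sum was 1332 ± 131 CPM in parental and 435.7 ± 19.4 CPM in mutant cells. Its log2 ratio was -1.61, or -0.68 when scaled by library totals. The genes that overlap MT1X and MTF1 in the annotation had 0 counts.

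The reported neighbours of the cluster with a substantial level gave no call in either direction in the main fit, where 46.2% of all tested genes were called. Of the 8 genes reported within 500 kb that had an average log2 CPM of at least 3, NUP93 (-0.81) and CPNE2 (-1.10) had negative log2 fold changes, and NUP93 was positive with library totals. NUDT21 (0.26), OGFOD1 (0.78), HERPUD1 (0.30), PSME3IP1 (0.32), NLRC5 (1.29) and BBS2 (1.51) had positive ones, of which NUDT21, OGFOD1, HERPUD1 and NLRC5 were negative with length offsets. BBS2, 25917 bases from the cluster, had the largest absolute value of these. With library totals BBS2, OGFOD1 and NLRC5 were called higher, as were 43.9% of all tested genes. GNAO1, at a lower level and chosen after its value was seen, was called higher within the same distance, from a mean of 1.33 counts in parental to 25 in mutant libraries (edgeR adjusted p = 0.00231). Its call was lost with length offsets (adjusted p = 0.0107) and without parental replicate 1, parental replicate 3 or mutant replicate 3 (edgeR adjusted p = 0.0161, 0.0207 and 0.0104).

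The genes whose levels followed MT2A most closely over the 6 libraries were CCHCR1, UQCRC1 and ARFIP2, each with a Pearson correlation of log2 CPM above 0.99. They had log2 fold changes of -2.91, -2.69 and -2.53. The 6 points are 2 groups of 3 that share the difference between the groups, and 2394 of 16058 genes exceeded 0.99.

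Of the 78 genes in the lists of other metallothionein loci, of zinc, copper and iron handling, of heavy metal stress and of the glucocorticoid response, 62 were tested, 24 were called higher and 10 lower, where 28.6% and 17.6% of all tested genes were. Their median log2 fold change was 0.82, against 0.32 for all tested genes. With offsets for length and GC content the counts were 11 and 6, where 12.9% and 11.3% of all genes tested in that fit were called.

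Zinc transporters were called in both directions. Of 9 exporters of the SLC30 family besides SLC30A1, 7 were tested, 4 were called higher and 1 lower, with a median log2 fold change of 1.70. Over all tested genes the shares were 28.6% higher and 17.6% lower. SLC30A6, which loads zinc into the secretory pathway, had 1.66, 2.48 and 4.01 CPM in parental and 16.4, 18.3 and 13.6 CPM in mutant libraries, a log2 fold change of 2.56 (SE 0.28, edgeR adjusted p = 2.41e-06). SLC30A9 (1.93) and SLC30A7 (1.70) were also called higher but were negative with length and GC offsets, SLC30A7 with length offsets alone as well, and SLC30A3, the exporter of synaptic vesicles, was called lower at -1.65. SLC30A6 was at 1.13 with length and GC offsets and no longer called, and SLC30A3 at -0.73 with library totals and -0.62 with length and GC offsets. Leaving out 1 library ended the call of SLC30A7 (1.57 without mutant replicate 2) and of SLC30A3 (-1.50 without mutant replicate 1).

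Of 14 importers of the SLC39 family, 11 were tested, 4 were called higher and 4 lower, against 28.6% and 17.6% of all tested genes. Their median was -0.78. SLC39A8, a plasma membrane carrier of zinc, manganese and cadmium, had 5.11, 5.02 and 6.72 CPM in parental and 142.74, 150.53 and 105.24 CPM in mutant libraries. Its log2 fold change of 4.56 (SE 0.20, edgeR adjusted p = 2.53e-09) was the largest of the zinc transporters tested. SLC39A10 (2.57), SLC39A6 (2.14) and SLC39A9 (1.89) were called higher as well. With length and GC offsets SLC39A8 was still called at 3.11, while SLC39A10 (0.10), SLC39A6 (0.76) and SLC39A9 (0.93) were not. SLC39A3 went from 133.17, 161.82 and 126.79 CPM to 21.7, 19.6 and 21.0 CPM, a log2 fold change of -2.76 (SE 0.14, edgeR adjusted p = 6.82e-09). SLC39A4, the zinc importer of the intestinal brush border, was called lower at -2.20, as were SLC39A7 at -1.81 and SLC39A13 at -1.64, carriers of the endoplasmic reticulum and Golgi. With library totals SLC39A3 was still called at -1.83, and SLC39A4 (-1.27), SLC39A7 (-0.88) and SLC39A13 (-0.71) were not. With length and GC offsets none of the 4 was called, at -0.98, -0.75, -1.36 and -0.26.

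Copper genes held 2 calls higher and 4 lower among 12 tested, against 28.6% and 17.6% of all tested genes, with a median of -0.98. The copper ATPases were both called higher. ATP7A had 11, 7 and 11 counts in parental and 466, 420.05 and 303 counts in mutant libraries, a log2 fold change of 4.30 (SE 0.26, edgeR adjusted p = 1.63e-08), and ATP7B was at 1.92. With length and GC offsets ATP7A was at 1.39 and not called, and ATP7B was at 0.64, at 0.13 with length offsets and at 1.56, under the threshold, without parental replicate 2. CCS (-2.55) and ATOX1 (-1.77), cytosolic chaperones that hand copper to SOD1 and to the copper ATPases, were called lower. CCS was at -0.76 with length and GC offsets and ATOX1 at -0.84 with library totals, both short of the threshold. ATOX1 was also short of it, at -1.58, with at least 10 counts in every library. CCS was still called with library totals (-1.62) and length offsets (-1.77). ATOX1, with a deposited length of 4341 bases, was still called with length offsets (-2.84) and with length and GC offsets (-2.92). SOD1 itself was at -1.45 and was not called. It falls outside the rule for named genes and was chosen after its value was seen.

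Iron genes held 6 calls higher and 0 lower among 15 tested, against 28.6% and 17.6% of all tested genes, with a median of 1.09. IREB2, the iron regulatory protein that stabilizes the transferrin receptor transcript, had a log2 fold change of 3.47 (SE 0.23, edgeR adjusted p = 2.46e-08). TFRC, the transferrin receptor, was at 2.34, with 31.1, 40.1 and 49.8 CPM in parental and 213.25, 219.91 and 177.92 CPM in mutant libraries. The ferrireductase CYBRD1 (2.40) and the ferritin autophagy receptor NCOA4 (1.95) were also called higher. With length and GC offsets none of these 4 was called, with IREB2 at 0.88, TFRC at 0.09 (edgeR adjusted p = 0.46), CYBRD1 at 0.64 and NCOA4 at 0.97. The ferritin subunits, the most abundant genes of the list, were lower without reaching the 3-fold threshold, FTH1 at -1.20 (7306.4 ± 301.6 to 3184.5 ± 198 CPM; edgeR adjusted p = 1.35e-06) and FTL at -1.19 (edgeR adjusted p = 4.11e-06), but with library totals they were at -0.27 and -0.26 and with length and GC offsets at 0.02 and 0.30. The summed level of the list was 11210 to 11980 CPM in parental and 5623 to 6044 CPM in mutant libraries. FTH1 and FTL fall outside the rule for named genes and were chosen after their values were seen.

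The heavy metal stress list held 3 calls higher and 1 lower among 7 tested, against 28.6% and 17.6% of all tested genes. Its median was 1.5. SLC7A11, the cystine importer for glutathione synthesis, had 11, 23 and 16.01 counts in parental and 1990.48, 1890 and 1068.83 counts in mutant libraries, a log2 fold change of 5.56 (SE 0.30, edgeR adjusted p = 7.61e-09). The thioredoxin reductase TXNRD1 was at 2.80 and the heat shock cochaperone DNAJB1 at -1.79. TXNRD1 was at 1.32 with length and GC offsets and DNAJB1 at -0.86 with library totals, both short of the threshold, and SLC7A11 was still called with either. HSPA1A was called higher at 5.38, but its near-identical copy HSPA1B was at -1.38 and reads can be split between them, so both values are uncertain.

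Of 8 genes of the glucocorticoid response, 7 were tested, 4 were called higher and 0 lower, against 28.6% and 17.6% of all tested genes. Their median was 3.09. NR3C1, the glucocorticoid receptor, had 7, 4 and 10 counts in parental and 486, 414 and 259 counts in mutant libraries, a log2 fold change of 4.72 (SE 0.32, edgeR adjusted p = 3.1e-08). The receptor targets SGK1 (4.26), DUSP1 (3.18) and KLF9 (3.09) were also called higher, KLF9 not with length and GC offsets (1.28), while FKBP5 and TSC22D3, other targets, were at 0.67 and 0.20 and were not called, with FKBP5 at -0.13 with length offsets and -1.09 with length and GC offsets. These last 2 genes fall outside the rule for named genes and were chosen after their values were seen.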

How the data were processed

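RNA-seq of 6 DLD1 libraries, 3 parental and 3 p85β KR-AA mutant, was analysed. The authors extracted total RNA with Trizol, built TruSeq libraries, and trimmed paired-end reads with SeqPrep and Sickle. The submitters' processing notes name HISAT2 2.1.0, RSEM 1.3.1, DESeq2 1.24.0 and the build hg18, without saying which step used which. The deposited values are estimated counts per Ensembl gene, not normalized, with a gene length. They were rounded to whole numbers before testing. Strand use in counting is not given in the sources used here.

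The genotypes were compared with edgeR 4.0.16 (R 4.3.3), using filterByExpr (minimum count 10, minimum total 15), TMM scaling, quasi-likelihood F test, Benjamini-Hochberg adjustment over 16059 genes, no covariate. Genes were called at a fold of at least 3 and an adjusted p below 0.01, the thresholds of the study's methods. Each standard error is the absolute log2 fold change divided by the root of F. One count was worth 0.0273 to 0.0728 CPM. Intervals and floors cover counting error only. Groups came from the sample labels. Symbols, positions and GC content came from GENCODE release 44 lifted to GRCh37, which may not be the build behind the counts, and promoters from RefSeq. All 6 count columns were used.

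The members and gene lists were chosen with earlier results of these data known. Named genes were all members, other metallothionein loci with a count, up to 4 called genes per direction and list with separate groups and a mean log2 CPM of 2 or more, the 3 genes most correlated with MT2A, and cluster neighbours, of which 1 is not reported here. Alternatives were library totals, DESeq2 1.42.0, other filters and thresholds, a replicate block, each library left out, and offsets for length and GC content (robust splines with 5 degrees of freedom, MASS). On simulated counts for the parental against mutant comparison, with 198 of 15704 genes changed, edgeR recovered 98.0% of 4-fold and 100% of 8-fold changes and called 0 unchanged genes. A length bias was also simulated, with 195 of 15568 genes changed. Without offsets edgeR then recovered 68.4% of 4-fold and 94.8% of 8-fold changes and called 1091 unchanged genes. With length offsets it recovered 98.0% and 100% and called 0. The simulated bias was a smooth function of length, the form that the offsets fit, and few genes changed. The simulation therefore cannot show how the offsets act in these data, where length trend and genotype cannot be told apart. Figures were drawn with matplotlib 3.10.9 in Python 3.11.15.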

Additional observations from a re-analysis of the deposited data

How the results depend on the processing

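Calls of members depended on scaling, length and thresholds. The main fit called 1 member higher and 2 lower. Members called higher were 2 with library totals, 0 with length offsets, 0 with length and GC offsets and 2 at an adjusted p below 0.05 with no fold threshold. Members called lower were 0 with library totals, 0 with at least 10 counts in every library, 0 with either kind of offset, 0 when the fold was tested against 3 and 4 at an adjusted p below 0.05; with at least 10 counts in every library MT2A and MT1F were both at -1.58, just under the threshold. Genes of the 7 metal, stress and glucocorticoid lists called higher were 24 in the main fit and 11 with length and GC offsets. Those called lower were 10 in the main fit, 3 with library totals, 5 with at least 10 counts in every library, 6 with length and GC offsets, 21 at an adjusted p below 0.05 and 4 tested against 3. All genes called higher were 4597, with 7052 for library totals, 2898 for at least 10 counts, 2825 for length offsets, 2054 for length and GC offsets, 7373 at an adjusted p below 0.05 and 2974 tested against 3. All genes called lower were 2825, with 973, 1802, 5738 and 1779 for library totals, length and GC offsets, an adjusted p below 0.05 and the test against 3.

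Signs reversed with length and GC offsets for MT1E (0.13), MT1X (0.30), SLC30A1 (-1.38), SLC30A9 (-0.66), SLC30A7 (-1.22), NUDT21 (-1.88), OGFOD1 (-1.11), HERPUD1 (-0.50), FTH1 (0.02), FTL (0.30) and FKBP5 (-1.09). With length offsets they reversed for MT1X (0.13), SLC30A1 (-0.51), SLC30A7 (-0.42), NUDT21 (-0.83), OGFOD1 (-0.40), HERPUD1 (-0.01), NLRC5 (-0.57) and FKBP5 (-0.13). With library totals the sign reversed for NUP93 (0.11), and for MT3 the values with 1 library left out ran from -0.03 (without mutant replicate 3) to 0.50. The summed metallothionein counts gave a log2 ratio of -1.61, and -0.68 with library totals. The cause of these changes was not tested, except that library totals move all genes together.

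With each library left out in turn, 1 to 1 members were called higher and 2 to 2 lower, 23 to 26 and 8 to 10 list genes, and 4404 to 4783 and 2774 to 2992 genes in all. Replicate numbers did not pair the libraries, as same-numbered pairs correlated at a mean of -0.028 against 0.013 for other pairs, and 1 of 3 parental libraries correlated best with its own number. With the replicate block 1 member was called higher and 2 lower, 24 and 9 list genes, and 4626 and 2827 genes in all. MT1A, MT1B, MT3, ATP7A, HSPA1A, NR3C1 and GNAO1 had no value with at least 10 counts in every library. DESeq2, no filter and the block kept the side of the threshold of all 6 tested members.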
